A study of Mus musculus with 16 samples.

Results

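The genes described here are *H2-D1* and *H2-K1*, which encode the heavy chains of the classical MHC class I molecules, *Tap1* and *Tap2*, which encode the subunits of the peptide transporter, and *Cd1d1*, which encodes a class I-like molecule. They were chosen by name, as 5 of the 734 genes in a table of log2 expression values, and all 5 were tested without any filter on low values. The RNA came from splenic CD11b+ cells of 16 wild type C57BL/6 (B6) mice, in 4 groups of 4, and was measured with the NanoString nCounter myeloid innate immunity panel, in which colour-coded probes are counted without amplification. Naive mice were untreated. The mice of the allo group were injected with 20000000 BALB/c spleen cells and received no further treatment. The CTLA4-Ig group received the same cells and 150 µg of CTLA4-Ig (abatacept, a fusion protein that blocks CD28 costimulation) on day 2, and the CTLA4-Ig/EPO group received in addition 5000 U/kg of erythropoietin (EPO, epoetin alfa) every day. Spleens of the injected mice were taken on day 7, and the cells were isolated by positive selection for CD11b. The labels describe the BALB/c cells as depleted of T cells and give an i.p. route, where the study's results have i.v., and the results also describe the profiled cells as CD11c-. No group received EPO without CTLA4-Ig or without BALB/c cells, so the effect of EPO alone was not measured. In the sample labels, the letter codes of the naive and allo mice in a protocol field are exchanged relative to the sample names, and the groups were taken from the names and treatment fields. Every comparison with naive or allo mice rests on those names. Under them, limma called 0 of 734 genes between CTLA4-Ig and allo mice, and 87 higher and 429 lower between allo and naive mice.

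MHC class I molecules present peptides from inside the cell to CD8+ T cells. Proteasomes cut proteins into peptides, the Tap1-Tap2 transporter moves them into the endoplasmic reticulum, and a loading complex with tapasin and calreticulin fits them onto the heavy chain. Interferon gamma, acting through transcription factors such as Irf1, is a known inducer of the heavy chain, transporter and immunoproteasome genes, and NF-kB acts on class I promoters as well. CD1d has a class I-like fold but presents lipids, to NKT cells, and is loaded in endosomes without the Tap transporter. In transplantation, class I molecules are also the antigens that distinguish donor from recipient.

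The promoter sequences of *H2-D1* and *H2-K1* carry elements by which class I genes are known to respond to NF-kB and interferon. They also show how alike these heavy chain genes are, and the *Tap1* stretch is given beside them. A RefSeq table (GRCm38.p6) gave a promoter for 3 of the 5 genes. The stretches are the 250 bases before the start of *H2-D1* (chr17:35262844-35263093, + strand), the 250 bases before the more upstream of 2 starts that this table lists for *H2-K1* (chr17:34000348-34000597, - strand), a stretch that lies within the RefSeq gene model, which begins farther upstream, and the 225 bases between *Psmb9*, which encodes an immunoproteasome subunit, and *Tap1* (chr17:34187331-34187555, + strand). They are written 5' to 3' along each gene. Capitals mark GGGATTCCC (a kappaB element), GAAGTGAA (the core of an interferon response element) and CCAAT, searched on both strands, so that TTCACTTC and ATTGG are matches on the opposite strand.
H2-D1: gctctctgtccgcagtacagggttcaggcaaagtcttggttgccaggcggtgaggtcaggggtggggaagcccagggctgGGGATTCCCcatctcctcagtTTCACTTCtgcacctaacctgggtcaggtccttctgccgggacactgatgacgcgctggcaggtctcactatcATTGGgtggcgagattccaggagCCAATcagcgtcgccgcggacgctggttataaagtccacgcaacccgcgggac
H2-K1: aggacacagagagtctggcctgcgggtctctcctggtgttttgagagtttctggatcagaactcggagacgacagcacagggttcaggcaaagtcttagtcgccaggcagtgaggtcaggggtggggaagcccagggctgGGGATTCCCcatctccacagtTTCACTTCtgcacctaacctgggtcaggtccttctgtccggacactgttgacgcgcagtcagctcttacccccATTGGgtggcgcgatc
Tap1: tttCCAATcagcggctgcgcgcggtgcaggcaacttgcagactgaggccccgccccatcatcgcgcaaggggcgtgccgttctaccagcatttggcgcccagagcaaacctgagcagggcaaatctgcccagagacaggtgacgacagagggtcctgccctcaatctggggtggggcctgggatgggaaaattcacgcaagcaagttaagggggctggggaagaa
The kappaB letters occurred in 0.301% of 32851 mouse promoter windows, the interferon response core in 1.20% and CCAAT in 33.8%. Both heavy chain promoters held the kappaB letters and the interferon response core in the same order, at 170 to 162 and 149 to 142 bases before the *H2-D1* start and at 110 to 102 and 89 to 82 bases before the *H2-K1* start. Neither element was in the *Tap1* stretch, which held a CCAAT at 222 to 218 bases before its start. Over 177 aligned columns, the *H2-D1* and *H2-K1* stretches were identical at 161 (91.0%), with a longest shared run of 47 bases. These matches describe the exact letters only, so variants of an element would have been missed. The 2 heavy chain genes are near-identical in much of their sequence, and the probe sequences were not used here, so how far their probes separate the 2 genes, or the B6 allele from that of the BALB/c donor, which carries a different MHC haplotype, is uncertain.

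Several features of the whole table bear on these genes. Each deposited value was the log2 of a whole count multiplied by a factor that was the same for all genes of a mouse, and that factor was between 1.27 and 1.85 in naive mice and between 0.56 and 0.79 in the others. Recovered totals were 562760 to 912328 counts per mouse. The median gene lay at a log2 value of 7.26 in naive mice, 6.53 in allo, 6.54 in CTLA4-Ig and 6.75 in CTLA4-Ig/EPO mice. Markers of cell types moved with the groups too. *Itgam*, which encodes CD11b itself, had a mean log2 value of 11.42 in naive and 8.85 in allo mice, and *Itgax*, which encodes CD11c, was detected in every group. The 10 measured neutrophil markers made up a median of 32.4% of counts in naive mice (27.8 to 50%), 3.26% in allo (2.38 to 6.85%), 3.59% in CTLA4-Ig (2.63 to 4.77%) and 11.7% in CTLA4-Ig/EPO mice (8.28 to 16.4%). The 3 measured B cell markers made up 0.114, 0.625, 0.593 and 0.36% in the same order, the 5 T cell markers 0.0567, 0.262, 0.254 and 0.0841%, the 9 dendritic cell markers 0.372, 1.41, 1.41 and 0.75%, the 3 NK cell markers 0.844, 1.30, 1.81 and 1.11%, and the 9 red pulp macrophage markers 0.843, 1.90, 1.63 and 5.99%. These shares depend on the total counts of a mouse, and the most abundant genes weigh most in them. Between allo and naive mice on the log2 scale, 0 NK cell markers were called higher and 2 lower by limma, though their share rose. Of the red pulp macrophage markers, 3 were higher and 2 lower. The background was 11.9% of genes higher and 58.4% lower. With EPO over CTLA4-Ig, 6 of 10 neutrophil markers were called higher and 4 did not pass, against 22.8% of genes higher and 28.3% lower. No gene of these lists was at a count of 1 or less in all mice. In bulk RNA, fewer cells of a type and less RNA per cell cannot be told apart, and the part of the cell mixture in the results below was not tested.

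**Figure D1:**
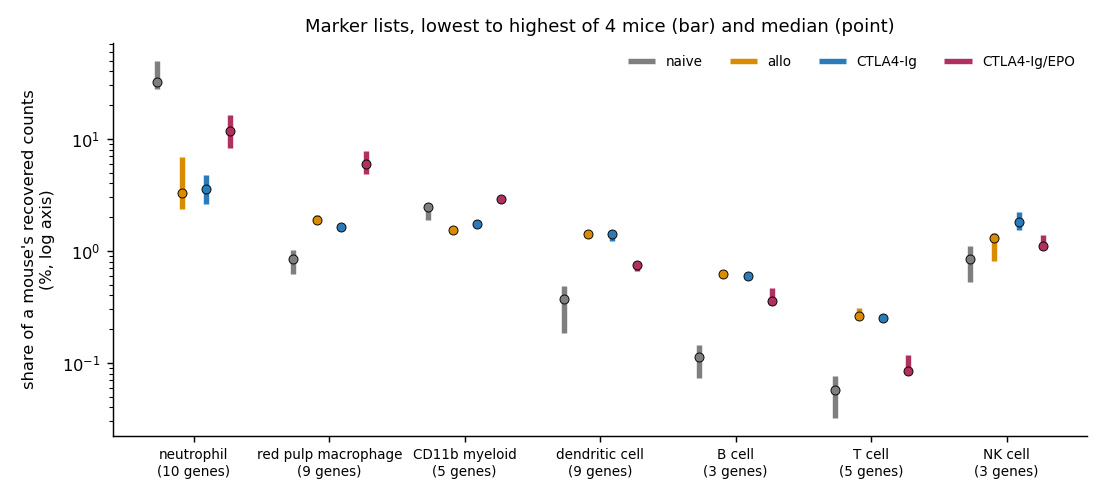
Share of each mouse's recovered counts (%, log axis) taken by the measured markers of 7 cell types, with bars from the lowest to the highest of 4 mice and points at the median; allo, BALB/c spleen cells alone. Neutrophil markers were highest in naive mice (median 32.4%), red pulp macrophage markers in CTLA4-Ig/EPO mice (5.99%), and B, T and dendritic cell markers in the allo and CTLA4-Ig groups.

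*H2-D1* was highest in naive mice, at log2 values of 13.71, 13.81, 13.82 and 13.71. It was 13.02, 13.02, 13.24 and 13.23 in allo, 13.03, 13.17, 13.24 and 13.23 in CTLA4-Ig, and 12.84, 12.91, 12.86 and 12.99 in CTLA4-Ig/EPO mice. The naive mice lay above all others and the CTLA4-Ig/EPO mice below all others, while the allo and CTLA4-Ig mice overlapped. *H2-K1* was 13.59, 13.84, 13.76 and 13.57 in naive, 13.70, 13.75, 13.78 and 13.77 in allo, 13.78, 13.80, 13.77 and 13.79 in CTLA4-Ig, and 13.52, 13.41, 13.20 and 13.29 in CTLA4-Ig/EPO mice. The CTLA4-Ig/EPO mice were again the lowest, but the first 3 groups overlapped. The 4 CTLA4-Ig mice spanned the narrowest range, with an SD of 0.01.

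*Tap1* and *Tap2* were lowest in CTLA4-Ig/EPO mice too. *Tap1* was 9.39, 9.40, 9.26 and 9.27 in naive, 9.46, 9.43, 9.61 and 9.50 in allo, 9.37, 9.26, 9.55 and 9.38 in CTLA4-Ig, and 8.95, 8.78, 8.89 and 8.95 in CTLA4-Ig/EPO mice. *Tap2* was 8.41, 8.67, 8.42 and 8.64 in naive, 8.59, 8.62, 8.72 and 8.57 in allo, 8.47, 8.67, 8.66 and 8.66 in CTLA4-Ig, and 8.11, 8.12, 7.86 and 8.03 in CTLA4-Ig/EPO mice. For both subunits, no CTLA4-Ig/EPO mouse reached the lowest mouse of any other group on the deposited scale. Against naive mice, this order of *Tap1*, *Tap2* and *H2-K1* did not hold under the other scalings given below, nor that of *H2-D1* under scaling by total counts.

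*Cd1d1* ran the other way. It was 8.59, 8.998, 8.85 and 8.83 in naive, 9.33, 9.39, 9.05 and 9.21 in allo, 9.32, 9.28, 9.20 and 9.11 in CTLA4-Ig, and 9.67, 9.73, 9.77 and 9.54 in CTLA4-Ig/EPO mice. All naive mice lay below, and all CTLA4-Ig/EPO mice above, the allo and CTLA4-Ig mice, which overlapped. The recovered counts behind these values were 208 to 1563 for *Cd1d1*, 184 to 685 for *Tap2*, 362 to 1273 for *Tap1*, 6650 to 23774 for *H2-K1* and 7229 to 16354 for *H2-D1*, so counting error was largest for *Tap2* and *Cd1d1* in naive mice. By limma's F-test over the 4 groups, the adjusted p was 1.66e-06 for *H2-D1*, 0.00124 for *H2-K1*, 5.03e-05 for *Tap1*, 7.12e-05 for *Tap2* and 3.03e-05 for *Cd1d1*.

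**Figure D2:**
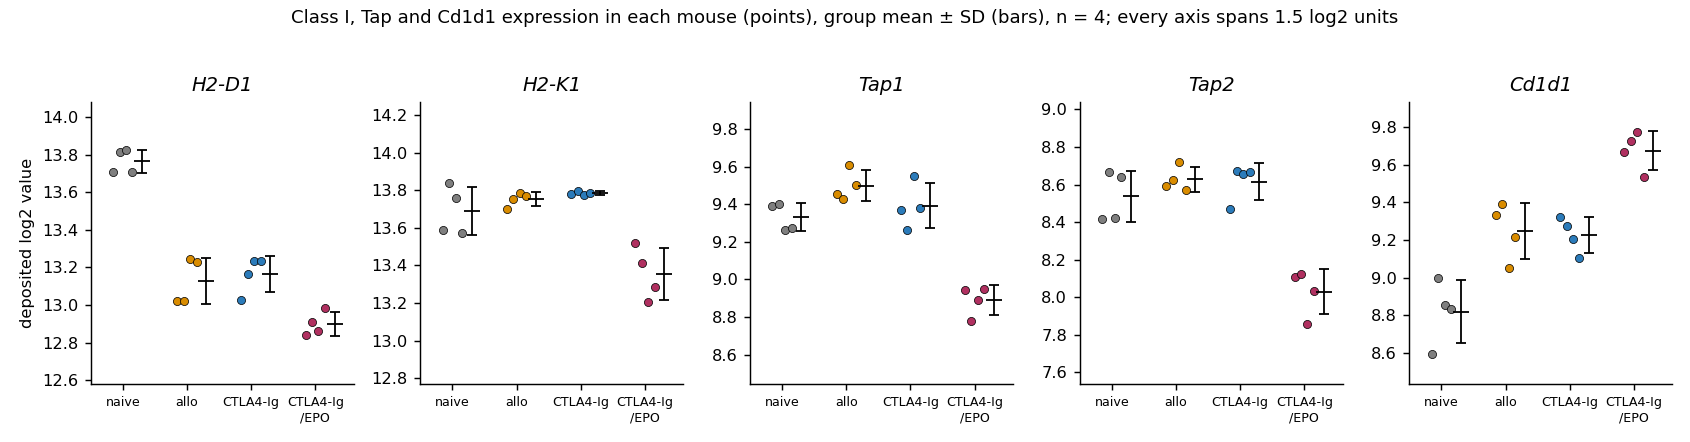
Deposited log2 values of the 5 genes in each mouse (points) with the group mean and SD (bars, n = 4); every vertical axis spans 1.5 log2 units, and allo is BALB/c spleen cells alone. In CTLA4-Ig/EPO mice on this scale, *H2-D1*, *H2-K1*, *Tap1* and *Tap2* lay below, and *Cd1d1* above, every mouse of the other groups. The lower values against naive mice depended on the scale.

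The comparison of CTLA4-Ig/EPO with CTLA4-Ig mice asked what EPO added to costimulation blockade. The 4 genes of the peptide pathway fell and *Cd1d1* rose. *Tap2* had a log2 difference of -0.59 ± 0.09 (SE; 1.5-fold lower; limma adjusted p = 9.2e-05), followed by *Tap1* at -0.50 ± 0.08 (1.41-fold; adjusted p = 0.000161) and *H2-K1* at -0.43 ± 0.09 (1.35-fold; adjusted p = 0.000778). *H2-D1* fell 1.20-fold (-0.27 ± 0.08; adjusted p = 0.0166). *Cd1d1* rose 1.36-fold (0.45 ± 0.11; adjusted p = 0.00239). Across all genes, 28.3% were called lower and 22.8% higher in this comparison, and the groups did not overlap for 48.8%, as they did not for these 5. The 5 genes were called in every fit that left out a mouse. *Cd1d1* lost its call when each mouse was centred on its median gene (0.25, adjusted p = 0.076), and *H2-D1* (-0.16, adjusted p = 0.384) and *H2-K1* (-0.33, adjusted p = 0.0775) lost theirs when counts were scaled by the totals, with no change of direction.

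In allo and CTLA4-Ig mice, *H2-D1* was lower in the mice numbered 1 and 2 than in those numbered 3 and 4, while the naive and CTLA4-Ig/EPO mice did not divide this way, and what the numbers stand for was not given. With EPO, *H2-K1* differed by -0.32 between mice numbered 1 and 2 and by -0.54 between mice numbered 3 and 4. *Tap2* differed by -0.45 and -0.72. The direction was the same in both sets of numbers for each of the 5 genes.

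The comparison of CTLA4-Ig with allo mice asked what costimulation blockade changed, and no difference was detected in these genes. None of the 5 was called between CTLA4-Ig and allo mice by limma, as 0% of all genes were called higher and 0% lower, and at an unadjusted p under 0.05 there were 70 genes and 0 of the 5. The groups overlapped for all 5, against 7.36% of genes without overlap. The log2 difference of *H2-D1* was 0.04 (95% interval -0.14 to 0.22), that of *H2-K1* 0.03 (-0.16 to 0.22), and that of *Cd1d1* -0.02 (-0.25 to 0.21). For *Tap1* it was -0.11 (-0.29 to 0.07) and for *Tap2* -0.01 (-0.21 to 0.19). These intervals bound the size of any change, and do not show that the groups were alike.

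Against allo mice, the CTLA4-Ig/EPO mice differed much as they did against CTLA4-Ig mice. These comparisons share the CTLA4-Ig/EPO mice. *Tap1* was 1.52-fold lower (-0.61 ± 0.08), *Tap2* 1.51-fold lower (-0.60 ± 0.09) and *H2-K1* 1.32-fold lower (-0.40 ± 0.09), and *Cd1d1* was 1.35-fold higher (0.43 ± 0.11), with limma adjusted p values of 2.81e-05, 8.59e-05, 0.00148 and 0.0033. *H2-D1* was 1.17-fold lower (-0.23 ± 0.08; adjusted p = 0.0356). The background was 27.7% of genes called lower, 22.9% called higher and 48.2% without overlap. The *H2-D1* call was lost when CTLA4-Ig/EPO replicate 1, 2 or 3 or allo replicate 3 or 4 was left out, with adjusted p values of 0.0829, 0.0584, 0.0729, 0.108 and 0.102, and with scaling by total counts (-0.12, adjusted p = 0.547). *H2-K1* lost its call with quantile normalization (-0.23, adjusted p = 0.115) and scaling by total counts (-0.29, adjusted p = 0.13), and *Cd1d1* lost its call with median centring (0.22, adjusted p = 0.118).

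The comparison of allo with naive mice asked what the BALB/c cells changed. *H2-D1* was 1.55-fold lower (-0.64 ± 0.08; limma adjusted p = 1.03e-05) and *Cd1d1* 1.35-fold higher (0.43 ± 0.11; adjusted p = 0.00229). *H2-K1* (0.06 ± 0.09), *Tap1* (0.17 ± 0.08; adjusted p = 0.0897) and *Tap2* (0.09 ± 0.09) did not pass, although the *Tap1* values of the groups did not overlap. In this comparison 58.4% of all genes were called lower, 11.9% higher and 61.2% had no overlap, and the median gene differed by -0.65, so *H2-D1* lay at the median and the other 4 genes above it. The direction of *H2-D1* depended on the scaling. It turned to 0.10 with median centring, 0.26 with quantile normalization and 0.45 with scaling by total counts, and under each of these *H2-K1*, *Tap1*, *Tap2* and *Cd1d1* were called higher, *Cd1d1* with values of 1.16, 1.13 and 1.52. Neutrophil markers were the lists' largest share of counts and also fell from 32.4 to 3.26% here; their part in the choice of scale was not tested.

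Between CTLA4-Ig/EPO and naive mice, *H2-D1* was 1.82-fold lower (-0.86 ± 0.08; limma adjusted p = 4.18e-07) and *Cd1d1* 1.81-fold higher (0.86 ± 0.11; adjusted p = 4.54e-06). *H2-K1* (-0.33 ± 0.09), *Tap1* (-0.44 ± 0.08) and *Tap2* (-0.51 ± 0.09) were called lower on the authors' scale. The background was 61.7% of genes called lower, 9.13% higher and 62.8% without overlap. The values of *H2-K1*, *Tap1* and *Tap2* turned positive under the 3 other scalings, and that of *H2-D1* under scaling by total counts (0.33). *Cd1d1* was higher than in naive mice under every scaling tried, at 1.38 with median centring, 1.62 with quantile normalization and 2.06 with scaling by total counts.

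**Figure D3:**
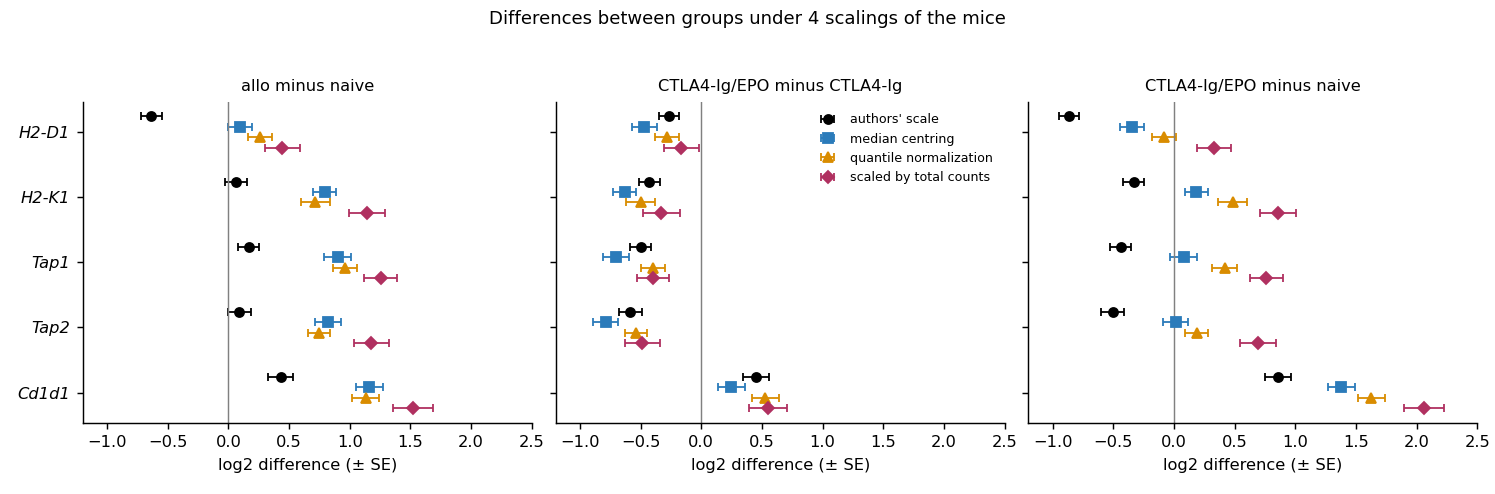
Log2 differences of the 5 genes (± SE) in 3 comparisons under 4 scalings of the mice; allo, BALB/c spleen cells alone. With EPO against CTLA4-Ig, all scalings gave the same direction for each gene, whereas in both comparisons with naive mice every gene had a higher value under the 3 other scalings than on the authors' scale, and several crossed 0.

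A difference between 2 of these genes within the same mouse is free of the mouse's scale factor. Its size has no meaning as a ratio of transcripts, because probes differ in efficiency, but its change between groups can be read. *H2-K1* minus *H2-D1* was -0.12, 0.02, -0.06 and -0.14 in naive mice, 0.68, 0.73, 0.54 and 0.54 in allo mice, 0.75, 0.63, 0.54 and 0.56 in CTLA4-Ig mice, and 0.68, 0.50, 0.34 and 0.30 in CTLA4-Ig/EPO mice. The balance between the heavy chain probes was thus 1.62-fold further towards *H2-K1* in allo than in naive mice (change 0.70, without overlap; exact permutation p = 0.0286). *Tap1* minus *Tap2* was 0.79 ± 0.15 in naive, 0.87 ± 0.05 in allo, 0.78 ± 0.15 in CTLA4-Ig and 0.86 ± 0.16 in CTLA4-Ig/EPO mice (SD, n = 4), with overlap in all 5 comparisons.

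The differences between *Cd1d1* and the heavy chains were nearest to 0 in CTLA4-Ig/EPO mice. *Cd1d1* minus *H2-K1* was -4.87 ± 0.11 in naive, -4.51 ± 0.18 in allo, -4.56 ± 0.10 in CTLA4-Ig and -3.68 ± 0.18 in CTLA4-Ig/EPO mice, a 1.84-fold change with EPO over CTLA4-Ig without overlap. *Cd1d1* minus *H2-D1* was -4.95 ± 0.13, -3.88 ± 0.27, -3.94 ± 0.18 and -3.22 ± 0.16, which made 2.09-fold between naive and allo mice and 1.64-fold with EPO over CTLA4-Ig. Of 25 such comparisons (5 pairs of genes by 5 comparisons), 10 reached the smallest two-sided p that an exact permutation test of 4 against 4 mice allows, 0.0286, and their Benjamini-Hochberg adjusted p was 0.0714, so 0 passed 0.05 after adjustment. This test does not pair the mice. Between CTLA4-Ig/EPO and CTLA4-Ig mice of the same number, *H2-K1* minus *H2-D1* differed by -0.07, -0.13, -0.20 and -0.25, and both *Cd1d1* differences were higher in 4 of 4 numbers, but an exact sign-flip test over 4 numbers cannot go below the p of 0.125 that each of these 3 gave.

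**Figure D4:**
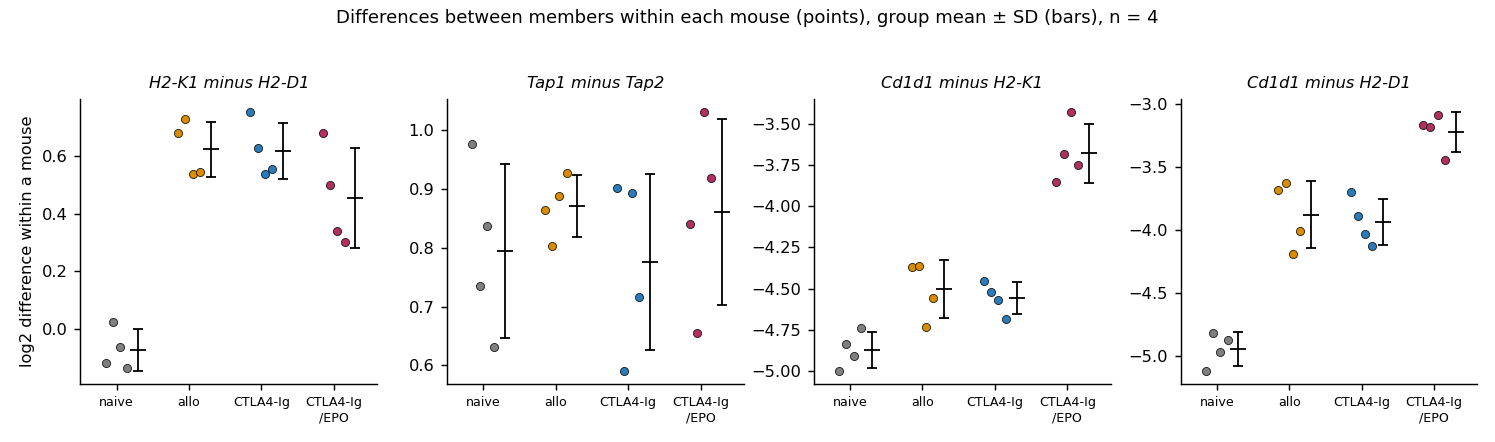
Differences between the log2 values of 2 genes within each mouse (points), with the group mean and SD (bars, n = 4); allo, BALB/c spleen cells alone. *H2-K1* minus *H2-D1* separated naive mice (-0.07 ± 0.07) from the others, *Tap1* minus *Tap2* overlapped in all groups, and both *Cd1d1* differences were highest in CTLA4-Ig/EPO mice.

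The other genes of the pathway were taken from lists, and their values are for CTLA4-Ig/EPO minus CTLA4-Ig, where the median of all genes was -0.07, and 28.3% of all genes were called lower and 22.8% higher. Besides *H2-D1*, *H2-K1* and *Cd1d1*, 4 class I and class I-like genes were measured, of which 1 fell, 0 rose and 3 did not pass. *H2-M3*, which encodes a nonclassical molecule that presents formylated peptides, fell by 0.42 (adjusted p = 0.00999). *H2-T23*, which encodes the Qa-1 molecule, was at -0.41 (adjusted p = 0.0632), *H2-Q10* at -0.09 and *Cd1d2*, the close relative of *Cd1d1*, at 0.02 ± 0.31. *H2-Q1*, added after the rows of the table were seen, fell by 0.57 (adjusted p = 0.00218), and *H2-Q2*, added likewise, was at -0.065.

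Besides the transporter, 5 genes of peptide supply and loading were measured, of which 3 fell, 1 rose and 1 did not pass. Those that fell were the immunoproteasome subunits *Psmb9* (-0.31; adjusted p = 0.0463) and *Psmb8* (-0.24; adjusted p = 0.0146) and tapasin, *Tapbp* (-0.17; adjusted p = 0.0468). *Calr*, the chaperone calreticulin, which also has a general role in protein folding, rose (0.58; adjusted p = 0.000158). The proteasome activator subunit *Psme2* was at -0.04. *B2m*, the light chain shared by class I and CD1d, and *Nlrc5*, the class I transactivator, were not analysed here.

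The class II genes fell further. Of 10 measured, 8 were lower, *Ctss*, which encodes the protease cathepsin S, was higher (0.43), and *H2-Ea-ps* did not pass (list median -0.92). *H2-Eb1*, a class II beta chain, fell by 1.24, *Cd74*, the invariant chain, by 1.05 and *H2-Ab1*, another beta chain, by 1.04. The alpha chain *H2-Aa* fell by 0.85 and *H2-Ob*, another gene of the list, by 1.11. The genes of the peptide exchange molecule H2-DM fell by 0.999 (*H2-DMb2*), 0.68 (*H2-DMa*) and 0.62 (*H2-DMb1*). The share of B cell markers fell from 0.593 to 0.36% and that of dendritic cell markers from 1.41 to 0.75% in the same comparison. By gene, 3 of 3 B cell markers were called lower by limma. Of 9 dendritic cell markers, 4 were called lower, 1 higher and 4 did not pass, against 28.3% of all genes lower and 22.8% higher. Both cell types express class II strongly, and their part in the class II or class I values was not tested.

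**Figure D5:**
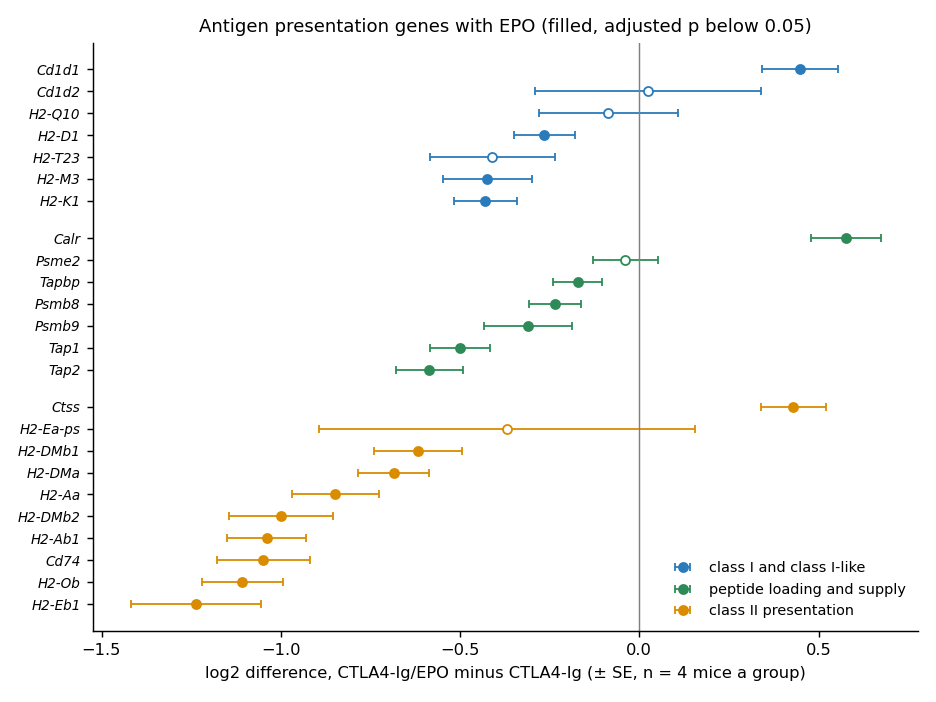
Log2 difference between CTLA4-Ig/EPO and CTLA4-Ig mice (± SE, n = 4 mice a group) for 24 genes of class I, peptide supply and class II presentation; filled points have an adjusted p below 0.05. *Cd1d1*, *Calr* and *Ctss* were called higher, and the 8 class II genes called lower (-0.62 to -1.24) lay to the left of every class I and supply gene.

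Of 12 measured genes of interferon signalling, 5 fell, 3 rose and 4 did not pass (list median -0.26). Among all genes 28.3% were lower and 22.8% higher, and whether the list differs from these shares was not tested. *Irf8*, also a dendritic cell marker here, did not pass at -0.46 ± 1.44 (SE), although its values did not overlap. Its SD was 4.42 in naive, 0.16 in CTLA4-Ig/EPO and 0.09 in CTLA4-Ig mice, and the fit shares a spread over all mice. *Ifng*, the cytokine interferon gamma, fell by 1.17 (adjusted p = 0.000269), its receptor chain *Ifngr1* by 0.67 (adjusted p = 0.000101), *Irf1*, the transcription factor, by 0.37 (adjusted p = 0.00787) and *Socs1*, an inhibitor of the pathway, by 0.54 (adjusted p = 0.00341). Among those that rose were *Irf7*, a transcription factor of the type I interferon response (0.35; adjusted p = 0.038), and *Ifnar2*, a type I receptor chain (0.27; adjusted p = 0.0183). T cells and NK cells make interferon gamma. In the same comparison, the share of T cell markers fell from 0.254 to 0.0841% and that of NK cell markers from 1.81 to 1.11%. By gene, 5 of 5 T cell and 3 of 3 NK cell markers were called lower by limma, against 28.3% of all genes. The part of these cells in the *Ifng* value was not tested. Of 6 interferon-induced genes outside presentation, *Isg15*, a ubiquitin-like modifier (2.16), *Usp18*, a protease that removes it (0.61), and the chemokine *Cxcl10* (0.55) rose and none fell. Of 4 genes of the NF-kB family, 3 fell, namely the inhibitor *Nfkbia* (-0.70; adjusted p = 0.00592), its relative *Nfkbiz* (-0.40; adjusted p = 0.0161) and the subunit gene *Nfkb1* (-0.27; adjusted p = 0.015).

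Of 6 measured genes of lipid handling, all were higher with EPO (list median 1.64), against 22.8% of all genes. The red pulp macrophage markers moved with them, with 9 of 9 higher (list median 1.72), and their part was not tested. *Lpl*, lipoprotein lipase, rose by 3.65, *Fabp4*, a fatty acid carrier, by 2.06 and *Pparg*, a lipid-sensing nuclear receptor, by 2.02. Between allo and naive mice, on the authors' scale alone, 0 of these 6 were called higher and 5 lower, where 58.4% of all genes were lower and 11.9% higher. *Cd1d1* was higher there, and a link between it and these 6 genes was not tested. *Apoe*, which encodes an apolipoprotein (-0.57), *Pparg* (-0.63) and *Fabp4* (-0.15) were not below the median of all genes of -0.65. *Klrk1*, which encodes the NKG2D receptor of NK and CD8+ T cells, was the 1 measured gene of the receptors of class I and related molecules, and it fell by 0.61 with EPO over CTLA4-Ig.

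Likeness over the 16 mice is given as Pearson's r on the log2 scale, as a description of mice that share groups and scale factors. *H2-K1* and *Tap2* had an r of 0.91, *Tap1* and *Tap2* 0.88, and *H2-K1* and *Tap1* 0.84, but *H2-D1* and *H2-K1* only 0.42. *H2-D1* and *Cd1d1* ran opposite, at -0.90. The genes most like *H2-D1* were *Tgm2* (0.98), *Irf1* (0.97) and *Nfkbiz* (0.96), those most like *H2-K1* *Gem* (0.96), *Malt1* (0.96) and *Birc2* (0.94), and those most like *Cd1d1* *Socs2* (0.94), *Sema6d* (0.92) and *Timd4* (0.88). *Tap1* was most like *Fosb* (0.94), *Sqstm1* (0.93) and *Egr3* (0.91), and *Tap2* most like *Crem* (0.94), *Tnfaip3* (0.93) and *Atf3* (0.92).

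Within groups, likeness was taken from each mouse's deviation from its group mean, again over the 16 mice. *H2-D1* was most like *Nr4a1* (0.92), *Adgre5* (0.89) and *Nod1* (0.86), and *H2-K1* most like *Nr4a2* (0.86), *H2-Ab1* (0.85) and *Mmp12* (0.85). The nearest genes to *Tap1* were *Syk* (0.77), *Cd38* (0.76) and *Myc* (0.69), those to *Tap2* *Fcer2a* (0.73), *Crem* (0.66) and *Ccl20* (0.65), and those to *Cd1d1* *Cd80* (0.73), *Jun* (0.70) and *Vwa5a* (0.70). *Crem*, for *Tap2*, was the gene among these that was near by both measures.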

How the data were processed

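RNA from splenic CD11b+ cells of 16 mice was counted on the nCounter panel. The authors normalized the counts in limma and deposited log2 values for 734 genes, a column per mouse; what the factor per mouse was computed from is not given in the sources used here. Counts were recovered as whole numbers, to within 0.001 for 100% of values. Between mice of a group, counts differed beyond sampling noise (chi-square per degree of freedom 5.10 or more). Which mice were handled together is not given, and p-values measure the spread between these samples.

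limma (3.58.1, R 4.3.3) was fitted to 4 group means over all 16 mice without a filter, with Benjamini-Hochberg adjustment over all genes and a threshold of 0.05, and was tested on simulated data. Tests were two-sided. The members, gene lists and tests were chosen with earlier results of these data known. Genes named were the members, up to 3 called genes of each list with the largest rise and fall with EPO over CTLA4-Ig, the class II, immunoproteasome, tapasin and *Irf1* genes, and the 3 genes most like each member; an item that this rule names is not reported here. *H2-T23*, *H2-Q1*, *H2-Q2*, *H2-Q10*, *Cd1d2*, *Psme2*, *Irf8*, *Itgam* and *Itgax* were named after values were seen. Mice share numbers 1 to 4 across groups. What the numbers stand for is not given, and the main limma fit and the permutation tests did not pair mice. Deviations from group means correlated weakly between same-numbered CTLA4-Ig and CTLA4-Ig/EPO mice (0.143 to 0.183). Of 4 CTLA4-Ig mice, 3 were most like their own number. Between same-numbered allo and CTLA4-Ig mice the correlations were 0.0156 to 0.293, with 2 of 4 most like their own number. A replicate block, which treats same-numbered mice as paired, is thus an assumption from the values alone. Alternatives were median centring, quantile normalization, voom on total-scaled counts, removal of the lowest 25% of genes, the 2 groups alone, trended and robust moderation, array weights, a 1.5-fold minimum, unadjusted p, leaving out each mouse, and the replicate block. A term for the numbers 1 and 2 against 3 and 4 was added after the data were seen. Promoters came from RefSeq (GRCm38.p6). Other steps used Python 3.11.15 with biopython 1.88, matplotlib 3.10.9, scipy 1.17.1, pandas 2.3.3 and numpy 2.4.6.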

Additional observations from a re-analysis of the deposited data

Results flagged for a closer look

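In the CTLA4-Ig group, *Tap2* in replicate 1 was at a log2 value of 8.47, apart from the other 3 mice at 8.66 to 8.67, and the gap made up 0.929 of the range of the group. It was the only one of 40 groups of values checked (5 genes and 5 within-mouse differences in 4 groups) in which a mouse passed the cut-off for a flag. Chance passes that cut-off, which is lower than this gap, in about 1 in 20 groups. Without this mouse, *Tap2* was still called lower in CTLA4-Ig/EPO than in CTLA4-Ig mice.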

How the results depend on the processing

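The number of the 5 genes called changed with the scale. For allo minus naive it was 2 on the authors' scale, 4 with median centring, 5 with quantile normalization, 5 with voom on total-scaled counts and 1 with a 1.5-fold minimum. For CTLA4-Ig/EPO it was 5 in each comparison on the authors' scale. Against CTLA4-Ig it was 4 with median centring, 3 with voom and 1 with a 1.5-fold minimum, against allo 4 with median centring, 4 with quantile normalization, 3 with voom and 2 with a 1.5-fold minimum, and against naive 2 with median centring, 3 with quantile normalization and 2 with a 1.5-fold minimum. Leaving out each mouse gave 2 to 2, 0 to 0 (CTLA4-Ig minus allo), 5 to 5, 4 to 5 and 5 to 5.

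Directions reversed in comparisons with naive mice. *H2-D1*, allo minus naive, became 0.10, 0.26 and 0.45 with median centring, quantile normalization and voom. For CTLA4-Ig/EPO minus naive, in the same order, *H2-K1* became 0.18, 0.48 and 0.86, *Tap1* 0.078, 0.42 and 0.76 and *Tap2* 0.012, 0.18 and 0.69, and *H2-D1* became 0.33 with voom. *H2-D1*, CTLA4-Ig minus allo, became -0.058 with quantile normalization, and leaving out a mouse gave -0.031 to 0.037 for *Tap2* and -0.085 to 0.027 for *Cd1d1* there. Within-mouse differences that had not passed changed sign 9 times in 3 comparisons when a mouse was left out. Causes were not tested.

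With the replicate block, which treats same-numbered mice as paired, all 5 genes kept their calls between CTLA4-Ig/EPO and CTLA4-Ig mice, with *H2-D1* at -0.27 (limma adjusted p = 0.0404). In the other comparisons of CTLA4-Ig/EPO mice, the block took the call from *H2-D1* against allo (limma adjusted p = 0.0844) and *H2-K1* against naive (limma adjusted p = 0.0748). It changed no other call. Of the changes of single values tried, 661 kept direction and, where a call was made, the call. Another 9 were the sign changes of within-mouse differences given above, 27 lost the call, 9 gained it and 19 reversed. The 661 include within-mouse differences with a mouse left out or with the block. These were judged by the size of the shift against the SD, without a call. No within-mouse difference had a call to lose. Counting error limits *Tap2* and *Cd1d1* in naive mice most.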
